A study of Mus musculus with 15 samples.

Results

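The growth hormone pathway of mouse hepatocytes was followed here through 10 genes, picked by gene symbol from the 56953 genes listed for each library. They are the receptor gene Ghr, the transcription factor gene Stat5b, the feedback inhibitor genes Cish and Socs2, the repressor gene Bcl6, the genes of the circulating products Igf1 and Igfals, and the liver target genes Selenbp2, Hsd3b5 and Elovl3. All 10 passed the filter on low counts, which 17975 of the 56953 genes passed. The genes were chosen with their levels in these libraries in view, so their differences between CCl4 and mineral oil are given as a description, without a test.

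Growth hormone from the pituitary binds its receptor on hepatocytes and switches on the kinase JAK2, which phosphorylates the receptor and the transcription factor STAT5B. STAT5B then enters the nucleus and turns on genes such as Igf1 and Igfals, along with Cish and Socs2, whose proteins damp the receptor. In male rodents the hormone arrives in pulses and in females more steadily, and STAT5B together with the repressor BCL6 carries that difference into sex-biased liver genes. Selenbp2, Hsd3b5 and Elovl3 are among the genes that male mouse liver expresses more than female liver.

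Messenger RNA was measured in 15 libraries from primary hepatocytes of mice. Of these, 4 came from mice with the ΔEGFR transgene given carbon tetrachloride (CCl4), 3 from wild-type (WT) mice given CCl4, 4 from ΔEGFR mice given mineral oil and 4 from WT mice given mineral oil. CCl4 is a liver toxin that hepatocytes activate, repeated dosing scars the liver, and mineral oil is its usual carrier. The series is titled for the EGFR (epidermal growth factor receptor) pathway in the niche of liver fibrosis. The promoter, species and part of EGFR in the transgene, and the strain, age and sex of the mice, the dose and the length of treatment are not given in the sources used here. No label says that libraries of a group came from separate animals, so the errors measure the spread between these libraries, which may be technical.

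Total counts ran from 51.7 to 155.4 megacounts per library. In mineral oil every ΔEGFR library held 98.6 to 140.6 megacounts. WT mineral oil replicates 2, 3 and 4 held 56.9 to 61.9 and replicate 1 held 135.5, so depth and genotype largely coincided in mineral oil. All 10 hepatocyte markers were above 0 in every library, with a summed level of 45100 to 115000 TPM, a level corrected for library depth and gene length. Xist was at most 0.01 TPM and the Y-linked genes Ddx3y, Uty, Eif2s3y and Kdm5d were present in all 15 libraries, Eif2s3y at 12.8 to 32.6 TPM. The 12 macrophage markers summed to 2620 to 8170 TPM in ΔEGFR mice given CCl4 against 36.1 to 1370 TPM in ΔEGFR mice given mineral oil, and to 2670 to 8600 TPM in WT mice given CCl4 against 87.7 to 1990 TPM in WT mice given mineral oil. None of the 12 was at 0 in any library, and all 12 had a positive log2 fold change with CCl4 in both genotypes. The 12 stellate cell markers summed to 113 to 451 TPM in ΔEGFR CCl4 against 18.7 to 114 TPM in ΔEGFR mineral oil, and to 90.8 to 301 TPM in WT CCl4 against 14.9 to 79.5 TPM in WT mineral oil. In WT the sums overlapped for the endothelial list (124 to 241 TPM in CCl4 against 25.9 to 331 TPM in mineral oil) and for the lymphocyte and neutrophil list (239 to 1050 TPM against 5.14 to 4550 TPM), with median log2 fold changes of −0.03 and −1.06. The cholangiocyte list summed to 347 to 1100 TPM in WT CCl4 against 37.7 to 92 TPM in WT mineral oil, though the median of its members was −0.09. In ΔEGFR the endothelial list summed to 170 to 372 TPM with CCl4 against 30.6 to 117 TPM with mineral oil. There the cholangiocyte list summed to 293 to 900 against 16.9 to 190 TPM. The lymphocyte and neutrophil sums overlapped, at 78.6 to 526 against 5.1 to 271 TPM. The ΔEGFR medians were 0.82, 1.27 and 0.67 in that order. The WT highs of 331 and 4550 TPM were both mineral oil replicate 1. A score of 53 markers of other cells, their mean log2 level, was 3.75 to 4.52 in ΔEGFR CCl4, 3.92 to 4.05 in WT CCl4, 0.3 to 3.42 in ΔEGFR mineral oil and 0.36 to 4.65 in WT mineral oil. WT mineral oil replicate 1 stood apart from its group with the score of 4.65, above every CCl4 library, while the other 3 reached 2.82 at most. In bulk RNA, fewer hepatocytes in a sample and less RNA of a gene per hepatocyte cannot be told apart.

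STAT5 binds paired half-sites of the form TTCNNNGAA, a pattern that reads the same on both strands. It was searched in the promoter windows of RefSeq (build GRCm38.p6), each 300 bases long, from 250 bases before a gene's start to 50 bases after it. A window was found for 8 of the 10 genes, all but Socs2 and Elovl3, and 5 of their 13 windows held the pattern, against 8.3% of all 32851 windows. Those windows belonged to 3 of the 8 genes, Igfals, Cish and Bcl6, of which Igfals and Bcl6 held it at more than 1 annotated start. Counted by gene, 9.55% of all genes with a window held the pattern. The stretches below are shown for the match farthest upstream (Igfals), the matches closest together (Cish) and the most matches in a window (Bcl6). Matches are in capitals, and a match describes the letters only and is not evidence of binding.
Igfals, the 250 bases before the most upstream start (chr17:24877594-24877843, plus strand), with 1 match at base 15: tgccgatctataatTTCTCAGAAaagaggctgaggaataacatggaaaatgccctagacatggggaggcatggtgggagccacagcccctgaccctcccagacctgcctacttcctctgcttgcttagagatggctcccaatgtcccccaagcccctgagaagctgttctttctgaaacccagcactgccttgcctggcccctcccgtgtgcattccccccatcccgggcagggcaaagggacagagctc
Cish, 30 bases around the annotated start (chr9:107296653-107296682, plus strand), with 2 matches at bases 7 and 18: ccagttTTCCTGGAAagTTCTTGGAAatct
Bcl6, the 250 bases before the second annotated start (chr16:23981284-23981533, minus strand), with 3 matches at bases 83, 129 and 163: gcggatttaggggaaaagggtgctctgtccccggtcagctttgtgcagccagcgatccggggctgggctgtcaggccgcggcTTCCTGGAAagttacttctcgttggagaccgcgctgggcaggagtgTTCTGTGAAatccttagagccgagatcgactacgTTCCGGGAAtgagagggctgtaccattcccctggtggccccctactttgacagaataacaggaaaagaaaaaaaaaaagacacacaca
Windows with 2 or more matches made up 0.457% of all windows, and windows with 3 or more made up 0.033%, or 11 windows. The windows of Ghr, Igf1, Stat5b, Selenbp2 and Hsd3b5 held no match, which says only that the letters are not in those 300 bases.

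Corrected for length, the 10 genes spanned a wide range of levels in WT mice given mineral oil. Selenbp2, a selenium-binding protein gene, was the most abundant at 1350 ± 685 TPM (SD, n = 4). Igf1 followed at 392 ± 63.9 TPM, Ghr at 275 ± 53.1, Hsd3b5 at 155 ± 101 and Elovl3 at 97.8 ± 102. Igfals stood at 69.7 ± 26.8 TPM, Socs2 at 38.1 ± 46, Cish at 37.1 ± 22.9, Bcl6 at 21.6 ± 10.4 and Stat5b at 20.3 ± 3.58. Only Selenbp2 lay clear of its neighbour in this order, with a lowest library of 800 TPM against a highest of 438 TPM for Igf1, and every other pair of neighbours overlapped in the 4 libraries. The lowest expected count of any of the 10 genes in a library was 47, for Hsd3b5 in WT CCl4 replicate 2.

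Levels between groups are given below in CPM, counts divided by library depth and scaled by the TMM factor of the library but not corrected for gene length. Of the 10 genes, 9 were lower on average with CCl4 in ΔEGFR mice and all 10 in WT mice. The levels with and without CCl4 did not overlap for 7 of the 10 genes in ΔEGFR, against 9.32% of all tested genes that were lower without overlap, and for 7 in WT, against 11.9%. Because the choice of genes had these levels in view, nothing is read from those shares. The median log2 fold change over the 10 genes was −1.85 in ΔEGFR and −1.81 in WT, beside −0.02 and −0.03 over all tested genes. The size depended on the scale. With limma on log2(TPM + 1) the medians were −1.14 and −1.1, beside 0.39 and 0.4 over all genes. Without a scaling factor they were −1.31 and −1.34, beside 0.44 and 0.4. With a term for the markers of other cells in the fit the medians were −1.44 and −1.39. The 10 hepatocyte markers were also lower on average with CCl4, all 10 in both genotypes, with medians of −0.86 in ΔEGFR and −0.95 in WT, and the macrophage markers were higher. The term for other cells holds no hepatocyte marker. The part of the hepatocyte markers in the levels of the 10 genes was not tested. That of the macrophage markers was not tested beyond that term.

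**Figure D1:**
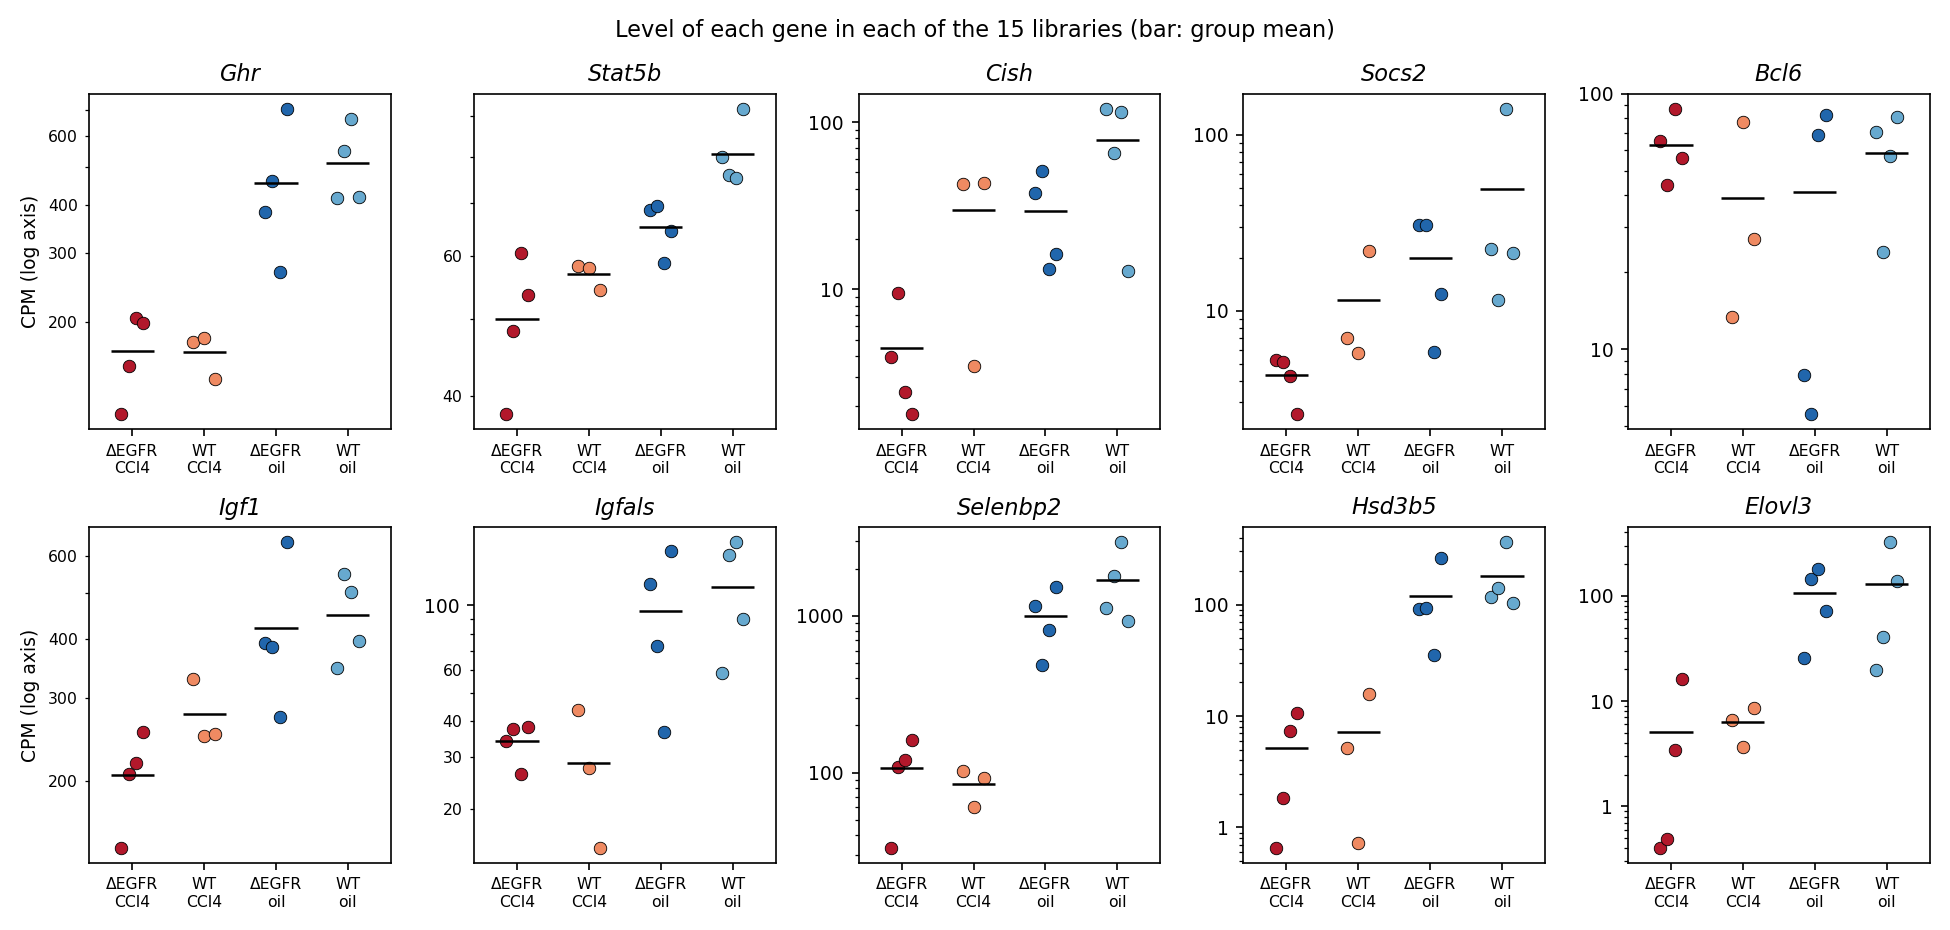
Level of each of the 10 genes in each library, in scaled CPM on a log axis that differs between panels, with 1 point per library and a bar at the group mean. The CCl4 libraries lie below the mineral oil libraries of their genotype for Ghr, Igf1, Selenbp2, Hsd3b5 and Elovl3 in both genotypes, while the groups overlap for Bcl6.

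Ghr encodes the growth hormone receptor. In ΔEGFR mice it measured 116, 154, 205 and 199 CPM with CCl4, against 383, 461, 269 and 705 CPM with mineral oil. In WT mice it measured 178, 182 and 143 CPM with CCl4, against 417, 548, 663 and 418 CPM with mineral oil. Every CCl4 library lay below every mineral oil library, and the WT CCl4 libraries lay within the range of the ΔEGFR CCl4 libraries. On the log2 scale the difference was −1.43 ± 0.28 (SE) in ΔEGFR, or 2.69-fold lower, and −1.61 ± 0.31 in WT, or 3.05-fold lower. With the term for other cells it was −1.02 ± 0.26 in ΔEGFR and −1.22 ± 0.27 in WT. On the TPM scale Ghr averaged 123 ± 22.8 with CCl4 and 245 ± 84 with mineral oil in ΔEGFR (n = 4 each), and 127 ± 3.87 (n = 3) and 275 ± 53.1 (n = 4) in WT.

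Stat5b encodes the transcription factor that carries the signal to the nucleus. It varied least of the 10 genes. ΔEGFR libraries held 38, 48.3, 60.5 and 53.6 CPM with CCl4, against 68.6, 69.5, 58.9 and 64.5 CPM with mineral oil. WT libraries held 58.4, 58 and 54.5 CPM with CCl4, against 79.9, 75.9, 75.3 and 92 CPM with mineral oil. The groups overlapped in ΔEGFR through a single CCl4 library at 60.5 CPM and did not overlap in WT. Its log2 fold change was −0.38 ± 0.13 in ΔEGFR and −0.50 ± 0.14 in WT. The direction depended on the scale: on log2(TPM + 1) with limma it was 0.16 ± 0.19 in ΔEGFR and 0.03 ± 0.21 in WT, where the medians over all genes were 0.39 and 0.4. TMM factors were 1.033 to 1.318 in ΔEGFR CCl4 and 1.039 to 1.345 in WT CCl4, against 0.745 to 1.026 in ΔEGFR mineral oil and 0.784 to 0.992 in WT mineral oil.

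Cish encodes CIS, a STAT5-induced inhibitor that binds the activated receptor. In ΔEGFR mice it measured 3.96, 9.53, 2.45 and 1.8 CPM with CCl4, against 37.6, 50.7, 13.2 and 16.2 CPM with mineral oil. In WT mice it measured 42.5, 3.49 and 43.2 CPM with CCl4, against 120, 65, 114 and 12.9 CPM with mineral oil. The ΔEGFR groups did not overlap in CPM, though they did in TPM, whereas in WT 1 mineral oil library at 12.9 CPM lay below 2 of the 3 CCl4 libraries. Its log2 fold change was −2.73 ± 0.85 in ΔEGFR, or 6.62-fold lower, and −1.39 ± 0.90 in WT, or 2.62-fold lower.

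Socs2 encodes a second feedback inhibitor of the receptor. It measured 5.26, 5.12, 4.27 and 2.58 CPM in ΔEGFR CCl4 libraries, against 30.8, 30.6, 5.79 and 12.4 CPM in ΔEGFR mineral oil libraries. In WT it measured 7.03, 5.75 and 21.8 CPM with CCl4, against 22.3, 11.5, 141 and 21.2 CPM with mineral oil. The highest of all 15 values, 141 CPM, came from a single WT mineral oil library, and the other 3 of that group lay far lower. The log2 fold change was −2.21 ± 0.79 in ΔEGFR, without overlap, and −2.09 ± 0.87 in WT, with overlap. Without WT mineral oil replicate 3, the library at 141 CPM, the WT value was −0.66.

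Bcl6 encodes a transcriptional repressor that opposes STAT5 at shared sites in mouse liver. Its libraries spread widely in 3 of the 4 groups: 65.2, 43.9, 87.2 and 55.8 CPM in ΔEGFR CCl4, and 13.4, 77.2 and 27 CPM in WT CCl4. The mineral oil libraries held 7.95, 5.59, 68.7 and 82.5 CPM in ΔEGFR and 71, 24.1, 57.2 and 81.2 CPM in WT. In ΔEGFR mineral oil the libraries split into a low pair and a high pair. On the log2 scale the difference was 0.61 ± 0.77 in ΔEGFR and −0.58 ± 0.84 in WT, each smaller than its standard error.

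Igf1 encodes insulin-like growth factor 1, the main circulating product of growth hormone action on the liver. It measured 145, 207, 219 and 254 CPM in ΔEGFR CCl4 libraries, against 393, 385, 274 and 641 CPM in ΔEGFR mineral oil libraries. In WT it measured 330, 250 and 252 CPM with CCl4, against 347, 549, 504 and 396 CPM with mineral oil. Neither genotype overlapped, but the nearest libraries stood close together, at 254 CPM with CCl4 and 274 CPM with mineral oil in ΔEGFR and at 330 and 347 CPM in WT. Its log2 fold change was −1.04 ± 0.26 in ΔEGFR and −0.70 ± 0.28 in WT. On the TPM scale the groups overlapped in both genotypes, at 278 ± 36.8 with CCl4 and 389 ± 87.9 with mineral oil in ΔEGFR (n = 4 each) and at 355 ± 57.1 (n = 3) and 392 ± 63.9 (n = 4) in WT. With limma on log2(TPM + 1) the difference was −0.46 ± 0.20 in ΔEGFR and −0.14 ± 0.22 in WT.

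Igfals encodes the acid-labile subunit, which holds IGF1 in its circulating complex. It measured 34.2, 37.6, 26.3 and 38.2 CPM in ΔEGFR CCl4 libraries, against 119, 72.5, 36.6 and 154 CPM in ΔEGFR mineral oil libraries. In WT it measured 43.8, 27.7 and 14.7 CPM with CCl4, against 58.4, 149, 165 and 90 CPM with mineral oil. The WT groups did not overlap, and in ΔEGFR 1 mineral oil library lay among the CCl4 libraries. On the log2 scale the difference was −1.49 ± 0.45 in ΔEGFR and −2.01 ± 0.51 in WT.

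The target genes Selenbp2, Hsd3b5 and Elovl3 showed the largest differences of the 10. Selenbp2 measured 33.3, 109, 121 and 162 CPM in ΔEGFR CCl4 libraries, against 1160, 487, 809 and 1530 CPM in ΔEGFR mineral oil libraries. In WT it measured 102, 60.5 and 91.9 CPM with CCl4, against 1120, 1780, 2940 and 920 CPM with mineral oil. The lowest mineral oil library stood well above the highest CCl4 library in both genotypes, and the log2 fold change was −3.23 ± 0.53 in ΔEGFR and −4.32 ± 0.63 in WT.

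Hsd3b5 encodes a steroid dehydrogenase of male mouse liver. It measured 0.66, 1.84, 7.31 and 10.7 CPM in ΔEGFR CCl4 libraries, against 91.2, 93.8, 35.1 and 261 CPM in ΔEGFR mineral oil libraries. In WT it measured 5.19, 0.722 and 15.8 CPM with CCl4, against 117, 140, 363 and 103 CPM with mineral oil. The groups did not overlap, and both the CCl4 and the mineral oil libraries spread widely among themselves. The log2 fold change was −4.55 ± 1.06 in ΔEGFR and −4.63 ± 1.21 in WT.

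Elovl3 encodes a fatty acid elongase. It measured 0.406, 0.489, 3.43 and 16.1 CPM in ΔEGFR CCl4 libraries, against 25.9, 145, 179 and 71.5 CPM in ΔEGFR mineral oil libraries. In WT it measured 6.62, 3.7 and 8.54 CPM with CCl4, against 19.8, 40.3, 323 and 137 CPM with mineral oil. The groups did not overlap in CPM in either genotype, although the mineral oil libraries were themselves far apart. In TPM the ΔEGFR groups overlapped, with CCl4 replicate 4 at 14.6 TPM and mineral oil replicate 1 at 13.4 TPM. The log2 fold change was −4.37 ± 1.23 in ΔEGFR and −4.37 ± 1.39 in WT.

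Near-identical copies of the target genes were counted separately by the authors' quantification, which divides reads between such copies, so the values of Selenbp2 and Hsd3b5 are uncertain to that extent. Selenbp1, the closest copy of Selenbp2, averaged 154 ± 13.6 CPM with CCl4 and 303 ± 78.5 with mineral oil in ΔEGFR (n = 4 each), and 107 ± 28.1 (n = 3) and 319 ± 90.6 (n = 4) in WT. A gene is said here to have risen or fallen at an adjusted p under 0.05 (edgeR's quasi-likelihood test, adjusted over 17975 genes by Benjamini-Hochberg). Selenbp1 fell in both genotypes, with log2 fold changes of −0.98 ± 0.25 in ΔEGFR (adjusted p = 0.0463) and −1.58 ± 0.28 in WT (adjusted p = 0.00638). The WT call held with every library left out in turn, while the ΔEGFR call was lost without WT mineral oil replicate 3 or 4, WT CCl4 replicate 2, ΔEGFR mineral oil replicate 1, 2 or 4 or any 1 of the ΔEGFR CCl4 libraries, and under 7 of the 12 other settings, TPM among them. Hsd3b3 measured −0.83 ± 0.34 in ΔEGFR (adjusted p = 0.151) and fell by 1.40 ± 0.38 on the log2 scale in WT (adjusted p = 0.03). Hsd3b2 measured −0.78 ± 0.32 in ΔEGFR (adjusted p = 0.16) and fell by 1.23 ± 0.36 on the log2 scale in WT (adjusted p = 0.0412). The Hsd3b3 call was lost without mineral oil replicate 2, 3 or 4 or any 1 of the WT CCl4 libraries, on the TPM scale and with the term for other cells. The Hsd3b2 call was lost in each of those cases, and also without ΔEGFR mineral oil replicate 1 or 2 or ΔEGFR CCl4 replicate 2, 3 or 4. Hsd3b4 was at most 0.568 CPM in any library, with 3.59 ± 1.32 in WT (adjusted p = 0.0914), and Hsd3b6 was at most 0.05 TPM. Stat5a, the neighbour of Stat5b with a closely related protein, did not pass the test, at 0.00 ± 0.24 in ΔEGFR and 0.10 ± 0.26 in WT (adjusted p = 1 and 0.829).

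The genotype comparisons asked whether ΔEGFR hepatocytes differed from WT hepatocytes in the same genes. In mineral oil all 10 genes had a negative log2 fold change for ΔEGFR against WT, with a median of −0.40 beside −0.01 over all tested genes, and 0 of the 10 were called, as were 0% of all tested genes. Stat5b differed most relative to its spread. It averaged 65.4 ± 4.84 CPM in ΔEGFR and 80.8 ± 7.77 CPM in WT (n = 4 each), without overlap in CPM but with overlap in TPM, a log2 fold change of −0.31 ± 0.13 with an adjusted p of 0.713 by edgeR's quasi-likelihood test. Groups that were lower in ΔEGFR without overlap made up 1.29% of all tested genes. Cish averaged 29.4 ± 17.9 CPM in ΔEGFR and 78 ± 49.9 CPM in WT (a difference of −1.41 ± 0.81 on the log2 scale, adjusted p = 0.713), and Socs2 averaged 19.9 ± 12.8 and 49 ± 61.6 CPM (−1.30 ± 0.76, adjusted p = 0.713), both with overlap. Ghr (−0.17 ± 0.28) and Igf1 (−0.08 ± 0.26) were the smallest differences.

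Under CCl4, 6 of the 10 genes had a negative and 4 a positive log2 fold change for ΔEGFR against WT, with a median of −0.24, and again 0 of 10 were called against 0% of all tested genes. Cish was 4.44 ± 3.52 CPM in ΔEGFR (n = 4) and 29.7 ± 22.7 CPM in WT (n = 3). Its difference of −2.74 ± 0.89 had an unadjusted p of 0.00846 and an adjusted p of 1 with edgeR. The groups overlapped through WT replicate 2 at 3.49 CPM. Socs2, at 4.31 ± 1.23 CPM in ΔEGFR and 11.5 ± 8.91 CPM in WT, was the 1 gene of the 10 whose groups did not overlap in CPM (−1.42 ± 0.81, adjusted p = 1), as was the case for 2.38% of all tested genes in that direction. In TPM the Socs2 groups overlapped. Igf1 averaged 206 ± 45.5 CPM in ΔEGFR and 277 ± 45.7 CPM in WT (−0.43 ± 0.27, adjusted p = 1), with overlap in CPM and none in TPM, and Ghr averaged 169 ± 41.6 and 168 ± 21.7 CPM (0.01 ± 0.30, adjusted p = 1).

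The interaction, the effect of CCl4 in ΔEGFR minus that in WT, was called for 0 of the 10 genes and for 0% of all tested genes. It was largest for Cish at −1.34 ± 1.17, Bcl6 at 1.19 ± 1.14 and Selenbp2 at 1.09 ± 0.72, and it was 0.18 ± 0.41 for Ghr and −0.34 ± 0.38 for Igf1 (adjusted p = 1 for each). Across all genes the smallest adjusted p was 0.636 for genotype in mineral oil, 1 for genotype under CCl4 and 1 for the interaction. The numbers at an unadjusted p under 0.05 were 1197, 411 and 568, and DESeq2 called 9, 1 and 2 genes.

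**Figure D2:**
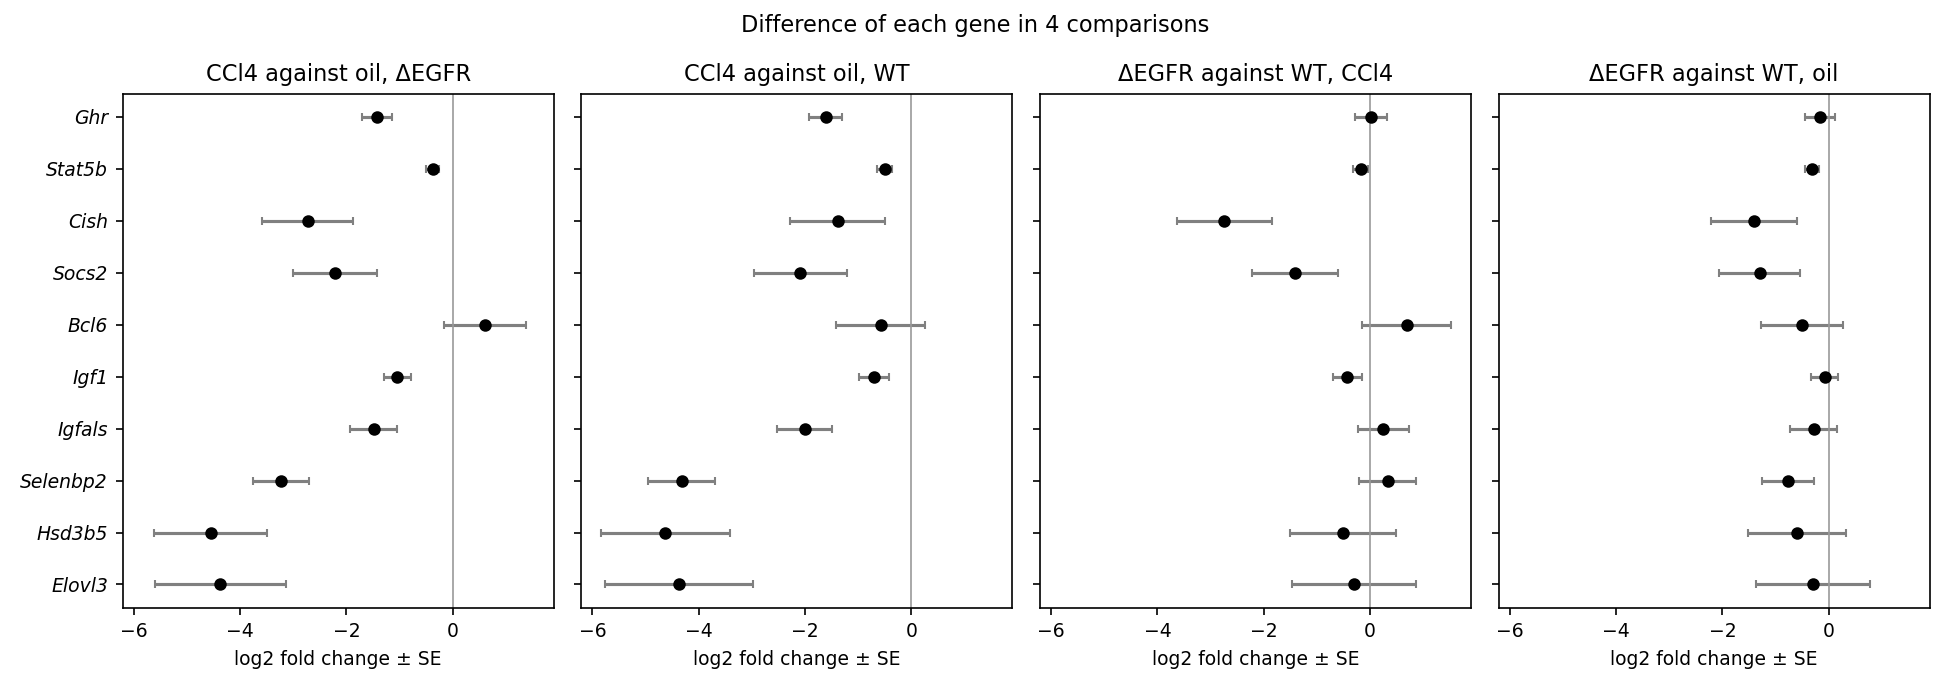
Log2 fold change of each of the 10 genes, with its standard error, for CCl4 against mineral oil in ΔEGFR and in WT and for ΔEGFR against WT under CCl4 and in mineral oil. Both treatment panels place Selenbp2, Hsd3b5 and Elovl3 farthest to the left, from −3.23 to −4.63, and in the genotype panels Cish under CCl4 lies lowest at −2.74.

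Most other components of growth hormone signalling did not pass the test with CCl4. Of 20 genes tested, 2 fell and 0 rose in ΔEGFR, and 3 fell and 2 rose in WT, at an adjusted p under 0.05 over all genes. Of all tested genes 2.38% fell and 1.77% rose in ΔEGFR, and 7.2% fell and 5.31% rose in WT. The list's median log2 fold change was 0.09 in ΔEGFR and −0.03 in WT. With limma on log2(TPM + 1), 6 rose and 0 fell in ΔEGFR and 5 rose and 0 fell in WT, and without a scaling factor 3 and 4 rose and 0 fell. None was called in ΔEGFR with the term for other cells, without mineral oil replicate 2 or 4 or without CCl4 replicate 2 or 3. In WT 0 were called without CCl4 replicate 2 or 3, 1 fell and 0 rose without mineral oil replicate 2 or 3, and 1 rose and 0 fell with the term for other cells. In a fit of only the 2 groups compared, 0 were called in WT. Stat3, the transcription factor of interleukin 6 signalling, averaged 114 ± 19.2 CPM with CCl4 and 198 ± 27.6 with mineral oil in ΔEGFR (n = 4 each) and 141 ± 26.5 (n = 3) and 223 ± 14.3 (n = 4) in WT. It fell, with log2 fold changes of −0.79 ± 0.16 in ΔEGFR (adjusted p = 0.0229) and −0.67 ± 0.17 in WT (adjusted p = 0.0256), without overlap. Sh2b1, an adaptor that binds JAK2, fell, with log2 fold changes of −0.46 ± 0.10 in ΔEGFR (adjusted p = 0.0327) and −0.51 ± 0.11 in WT (adjusted p = 0.0132). Both calls were lost on the TPM scale and without a scaling factor, where the log2 fold change of Sh2b1 in ΔEGFR was 0.08 and 0.01. Both calls were also lost with the term for other cells. Without WT CCl4 replicate 2 or 3, neither Stat3 nor Sh2b1 was called in WT, and Stat3 in WT was also lost without mineral oil replicate 2 or 3. In ΔEGFR Stat3 was lost without mineral oil replicate 2 or 4 or CCl4 replicate 1, 2 or 3, and Sh2b1 without WT CCl4 replicate 2 or 3, ΔEGFR mineral oil replicate 2 or 4 or ΔEGFR CCl4 replicate 2, 3 or 4. Grb2, an adaptor of the Ras pathway, rose by 0.73 ± 0.17 in WT (adjusted p = 0.0187) and measured 0.57 ± 0.16 in ΔEGFR (adjusted p = 0.0655); the WT call was lost without mineral oil replicate 2 or 3 or CCl4 replicate 2 or 3, and with the term for other cells.

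The remaining called genes of that list, named after their values were seen, were Sirpa and Socs7. Sirpa, a receptor abundant on macrophages, rose by 2.76 ± 0.79 in WT (adjusted p = 0.0377), at 385 ± 153 CPM with CCl4 and 56.7 ± 55 with mineral oil, beside the higher macrophage markers. Its call was kept with the term for other cells, and the part of those markers was not tested beyond that term. The Sirpa call was lost without WT mineral oil replicate 2, 3 or 4, WT CCl4 replicate 2 or 3, ΔEGFR mineral oil replicate 2 or ΔEGFR CCl4 replicate 3 or 4. It was also lost with no low-count filter and with only the 2 groups compared. Socs7 fell by 0.71 ± 0.18 on the log2 scale in WT (adjusted p = 0.0266). Its call was lost without WT mineral oil replicate 2 or 3, any 1 of the WT CCl4 libraries, ΔEGFR mineral oil replicate 2 or ΔEGFR CCl4 replicate 4, on the TPM scale, without a scaling factor and with the term for other cells. Jak2, the kinase bound to the receptor, measured 0.15 ± 0.27 in ΔEGFR and −0.15 ± 0.29 in WT (adjusted p = 0.757 and 0.772). Ptpn1, a phosphatase that acts on JAK2, measured 0.54 ± 0.36 and 0.81 ± 0.38 (adjusted p = 0.364 and 0.181). Irs2, an insulin receptor substrate, measured −0.52 ± 0.54 and −0.22 ± 0.58 (adjusted p = 0.576 and 0.829). Socs3, an inhibitor of cytokine receptors, held 8.37, 21.7, 11.1 and 7.31 CPM in ΔEGFR CCl4 against 56.7, 53.8, 45.6 and 52.5 CPM in ΔEGFR mineral oil. In WT it held 74.3, 11.6 and 16.5 CPM with CCl4 against 405, 44.2, 84.8 and 41.2 CPM with mineral oil, the 405 CPM being replicate 1. It did not pass the test, at −2.10 ± 0.76 in ΔEGFR (adjusted p = 0.119) and −2.08 ± 0.84 in WT (adjusted p = 0.124).

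Of 15 genes of the insulin-like growth factor axis that were tested, 1 rose and 0 fell in ΔEGFR, against 1.77% and 2.38% of all tested genes, and 3 rose and 2 fell in WT, against 5.31% and 7.2%. The list's median was 1.21 in ΔEGFR and 0.27 in WT. The WT median was 1.11 without mineral oil replicate 1 and −0.45 without CCl4 replicate 1. No gene of the list rose in WT without mineral oil replicate 3 or CCl4 replicate 2 or 3, and 1 rose without mineral oil replicate 2 or 4. With only the 2 groups compared, 0 rose and 1 fell in WT. With the term for other cells 0 were called in ΔEGFR (median 0.35), and 1 rose and 1 fell in WT (median −0.27). Igf2r, the receptor that clears IGF2, averaged 122 ± 7.23 CPM with CCl4 and 66 ± 12.2 with mineral oil in ΔEGFR (n = 4 each) and rose by 0.89 ± 0.18 (adjusted p = 0.0229). It also rose by 0.70 ± 0.19 in WT (adjusted p = 0.029). The ΔEGFR call was lost without mineral oil replicate 1 or 4 or CCl4 replicate 1, 2 or 3, the WT call without mineral oil replicate 2, 3 or 4 or CCl4 replicate 2 or 3, and both with the term for other cells. Insr, the insulin receptor, averaged 76.7 ± 8.49 CPM with CCl4 (n = 3) and 173 ± 25.1 with mineral oil (n = 4) in WT and fell by 1.17 ± 0.20 (adjusted p = 0.00549), a call kept with every library left out in turn and lost on the TPM scale. In ΔEGFR it measured −0.55 ± 0.18 (adjusted p = 0.0919), without overlap. Igfbp4, a binding protein that sequesters IGF, averaged 652 ± 218 CPM with CCl4 and 1750 ± 673 with mineral oil in WT and fell by 1.42 ± 0.36 (adjusted p = 0.0227). That call was lost without mineral oil replicate 2 or 3 or CCl4 replicate 2 or 3 and with the term for other cells, and in ΔEGFR Igfbp4 measured −0.86 ± 0.32 (adjusted p = 0.127).

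Igfbp6 and Pappa, named after their values were seen, were the other genes of the axis that rose in WT, both at very low levels. Igfbp6 held 2.15, 1.8 and 0.919 CPM with CCl4 against 0.297, 0, 0.02 and 0.245 CPM with mineral oil. Pappa, a protease of binding proteins, held 0.0927, 0.246 and 0.168 CPM against 0 in all 4 mineral oil libraries, for which no fold is given. The call of Igfbp6 was lost without mineral oil replicate 3, without any 1 of the WT CCl4 libraries and with the term for other cells, and that of Pappa without mineral oil replicate 2, 3 or 4 or CCl4 replicate 2 or 3. Igfbp1 measured 1.45 ± 0.87 in ΔEGFR and 1.60 ± 0.92 in WT (adjusted p = 0.318 and 0.273), Igfbp2 −0.60 ± 0.35 and −0.95 ± 0.39 (adjusted p = 0.3 and 0.124) and Igfbp3 1.36 ± 0.92 and 0.27 ± 0.98 (adjusted p = 0.375 and 0.877). Igf2 stayed under 0.45 CPM in every library. Igf1r, the receptor of IGF1, held 3.17, 5.89, 5.63 and 3.72 CPM in ΔEGFR CCl4 against 2.66, 2, 2.79 and 0.483 CPM in ΔEGFR mineral oil. In WT it held 5.17, 6.02 and 5.86 CPM with CCl4 against 44.6, 0.897, 0.599 and 2.24 CPM with mineral oil, the 44.6 CPM being replicate 1. Its log2 fold change in WT was −1.09 ± 1.16 (adjusted p = 0.569) and 2.19 without that library, and in ΔEGFR it was 1.21 ± 1.06 (adjusted p = 0.5).

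Of 20 male-biased liver genes other than the 3 targets above, 13 fell, 0 rose and 7 did not pass the test in ΔEGFR, where 2.38% of all tested genes were called lower, and 13 fell, 0 rose and 7 did not pass in WT, where 7.2% were. The list's median log2 fold change was −2.33 in ΔEGFR and −2.30 in WT, beside −0.86 and −0.95 for the 10 hepatocyte markers and −0.02 and −0.03 over all tested genes. Nothing particular to the list is read from these counts. Cyp7b1, an oxysterol hydroxylase, averaged 18.4 ± 8.74 CPM with CCl4 and 264 ± 120 with mineral oil in ΔEGFR (n = 4 each), and 28.7 ± 14.9 (n = 3) and 448 ± 243 (n = 4) in WT. It fell, with log2 fold changes of −3.84 ± 0.58 in ΔEGFR (adjusted p = 0.00944) and −3.96 ± 0.66 in WT (adjusted p = 0.00549). Susd4, a complement regulator gene, fell, with log2 fold changes of −5.53 ± 0.82 in ΔEGFR (adjusted p = 0.00874) and −7.09 ± 1.01 in WT (adjusted p = 0.00352). Its CCl4 libraries held at most 1.58 CPM in ΔEGFR and 0.519 CPM in WT, against at least 16.3 and 16.5 CPM in the mineral oil libraries. Nat8, an acetyltransferase gene, fell, with log2 fold changes of −1.77 ± 0.24 in ΔEGFR (adjusted p = 0.00583) and −1.87 ± 0.26 in WT (adjusted p = 0.00344). Cyp7b1, Susd4 and Nat8 kept their calls in both genotypes with every library left out in turn and under all 12 other settings.

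Cyp4a12a, a fatty acid hydroxylase, averaged 46.4 ± 24.9 CPM with CCl4 and 379 ± 128 with mineral oil in ΔEGFR, and 57.8 ± 29.5 and 504 ± 171 in WT. It fell, with log2 fold changes of −3.03 ± 0.48 in ΔEGFR (adjusted p = 0.0105) and −3.12 ± 0.54 in WT (adjusted p = 0.0057). Cyp2d9, a steroid hydroxylase, fell, with log2 fold changes of −1.17 ± 0.25 in ΔEGFR (adjusted p = 0.0298) and −1.88 ± 0.28 in WT (adjusted p = 0.00382). The ΔEGFR calls of Cyp4a12a and Cyp2d9 were lost with the term for other cells. The ΔEGFR call of Cyp2d9 was also lost on the TPM scale and without mineral oil replicate 1, 2 or 4 or CCl4 replicate 1, 2 or 3. Mup20, the pheromone gene darcin, fell, with log2 fold changes of −2.20 ± 0.48 in ΔEGFR (adjusted p = 0.0302) and −2.02 ± 0.53 in WT (adjusted p = 0.0264). The Mup20 call was lost in ΔEGFR without mineral oil replicate 1, 2 or 4 or CCl4 replicate 1 or 2, in WT without mineral oil replicate 2 or 3 or CCl4 replicate 2 or 3, and in both genotypes with the term for other cells. Mup and Cyp4a12 genes have near-identical copies, so their reads may be divided uncertainly. Egfr, which male mouse liver expresses more, fell, with log2 fold changes of −2.46 ± 0.40 in ΔEGFR (adjusted p = 0.0112) and −2.14 ± 0.44 in WT (adjusted p = 0.0109). The WT call was lost without CCl4 replicate 3 and the ΔEGFR call with the term for other cells. Whether reads of the ΔEGFR transgene were counted as Egfr is not given in the sources used here. Slco1a1, an organic anion carrier, did not pass the test, at −2.67 ± 0.87 in ΔEGFR (adjusted p = 0.0926) and −3.05 ± 0.99 in WT (adjusted p = 0.0604). Gstp1, a glutathione transferase, measured −0.56 ± 0.32 and −0.63 ± 0.35 (adjusted p = 0.282 and 0.25).

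The count of 13 male-biased genes depended on single libraries and on the markers of other cells. In ΔEGFR it was 7 without mineral oil replicate 4 or CCl4 replicate 1 or 2, and 8 without mineral oil replicate 1 or 2. In WT it was 8 without CCl4 replicate 3. With the term for other cells it was 4 in ΔEGFR and 9 in WT, with medians of −2.04 and −1.88, and no gene of the list rose in any of these fits.

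Of 27 female-biased liver genes, 21 passed the filter, and 1 rose and 0 fell in ΔEGFR, against 1.77% and 2.38% of all tested genes, while 2 rose and 1 fell in WT, against 5.31% and 7.2%. The medians were 0.07 in ΔEGFR and 0.36 in WT. In ΔEGFR the median was 1.31 without mineral oil replicate 4 and −0.27 without mineral oil replicate 3, and no gene was called without any 1 of the 8 ΔEGFR libraries. In WT it was 1.03 without mineral oil replicate 4 and −0.07 without CCl4 replicate 1, and 0 were called without CCl4 replicate 2. With only the 2 groups compared, 0 were called in WT. With the term for other cells 0 were called in either genotype, with medians of 1.11 in ΔEGFR and 0.06 in WT. Abcd2, a peroxisomal transporter, averaged 33.3 ± 9.56 CPM with CCl4 and 3.89 ± 2.41 with mineral oil in ΔEGFR (n = 4 each), and 26.5 ± 5.79 (n = 3) and 3.83 ± 3.84 (n = 4) in WT. It rose by 3.10 ± 0.77 in ΔEGFR (adjusted p = 0.0422) and by 2.79 ± 0.79 in WT (adjusted p = 0.0368). The ΔEGFR call was lost without any 1 of the 8 ΔEGFR libraries or without WT CCl4 replicate 2 or 3, and with the term for other cells. The WT call was lost with that term too, without mineral oil replicate 2, without any 1 of the WT CCl4 libraries and without ΔEGFR CCl4 replicate 2 or 3. Cyp3a44, a cytochrome P450, rose by 4.90 ± 1.21 in WT (adjusted p = 0.0218) at 1.39 ± 1.29 CPM with CCl4 and 0.046 ± 0.0587 CPM with mineral oil, and it measured 3.29 ± 1.03 in ΔEGFR (adjusted p = 0.0849). The WT call of Cyp3a44 was lost without mineral oil replicate 2 or 3 or CCl4 replicate 2, with limma on log2(TPM + 1) and with the term for other cells. Lifr, the receptor of leukaemia inhibitory factor, fell by 2.04 ± 0.48 on the log2 scale in WT (adjusted p = 0.0189) and measured −1.14 ± 0.43 in ΔEGFR (adjusted p = 0.127), the WT call being lost without CCl4 replicate 2 or 3 and with the term for other cells.

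The classic female-specific genes were near 0. Cux2, a female-specific repressor, was at most 0.803 CPM, A1bg at most 0.384 CPM, Cyp2b9 at most 2.6 CPM and Sult3a1 at most 0.03 TPM in any library. Cyp17a1, a steroid hydroxylase, measured −0.11 ± 0.90 in ΔEGFR and −0.15 ± 0.98 in WT (adjusted p = 0.953 and 0.933). Prlr, the prolactin receptor, measured −0.52 ± 0.38 and −0.32 ± 0.42 (adjusted p = 0.418 and 0.647). None of the 76 tested genes of the 4 lists was called for genotype in mineral oil, for genotype under CCl4 or for the interaction by edgeR. Pooled over the 4 lists, 2 rose and 15 fell with CCl4 in ΔEGFR and 7 rose and 19 fell in WT. Without a scaling factor these splits were 5 and 12 in ΔEGFR and 9 and 15 in WT, and with limma on log2(TPM + 1) they were 11 and 13 in ΔEGFR and 9 and 17 in WT.

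**Figure D3:**
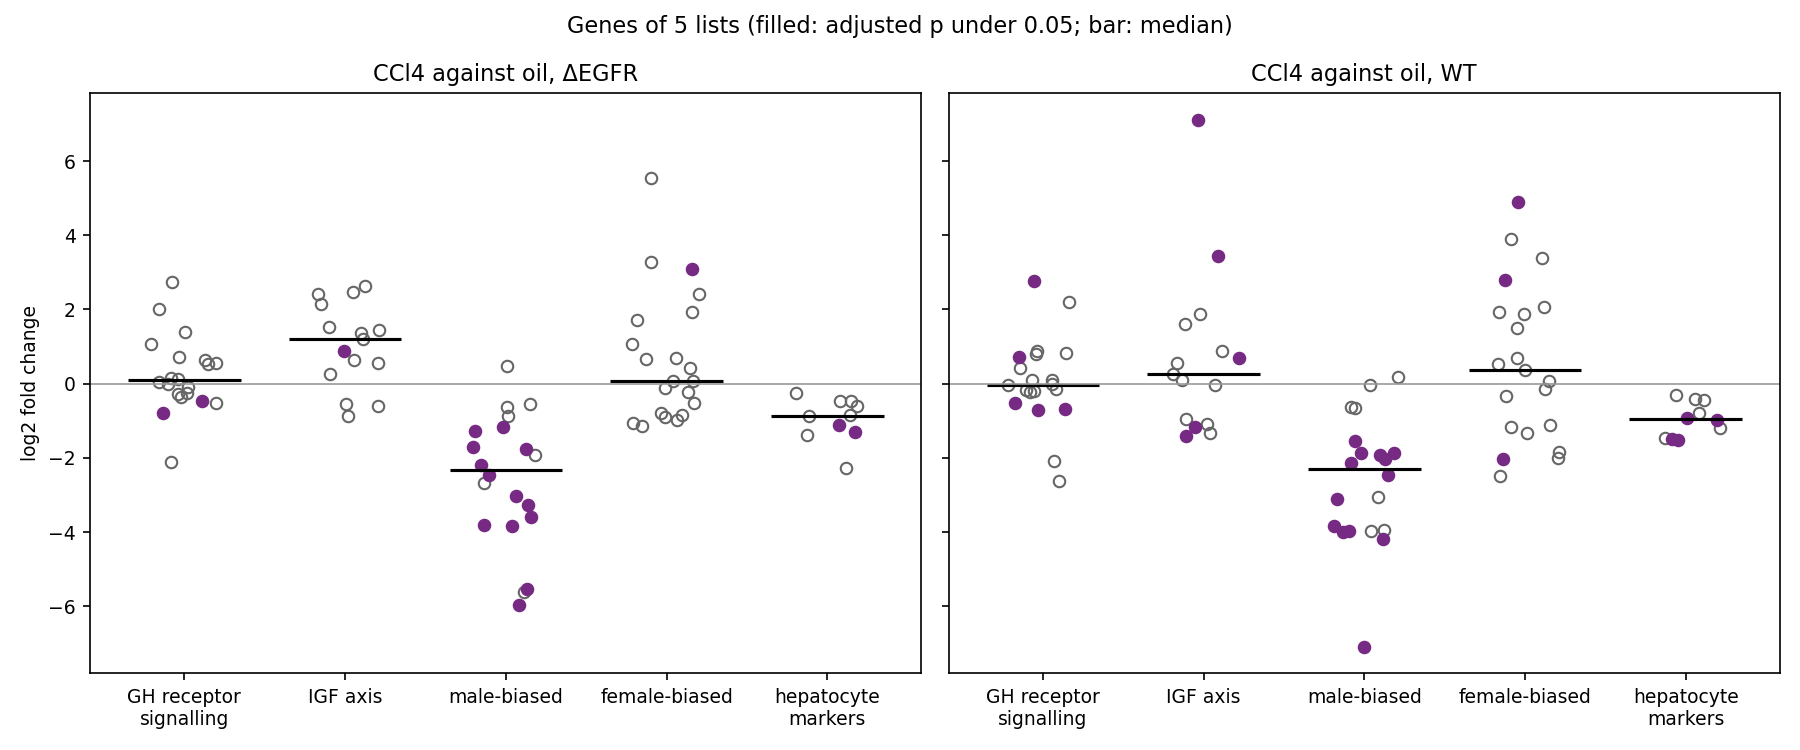
Log2 fold change with CCl4 of every tested gene of 5 lists, in ΔEGFR on the left and WT on the right, with filled points for an adjusted p under 0.05 and a bar at the list's median. The male-biased genes lie lowest, with medians of −2.33 in ΔEGFR and −2.30 in WT, and the hepatocyte markers lie at −0.86 and −0.95.

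The 10 genes differed widely in how much libraries of a group varied. The SD within groups on the log2 scale was 1.75 for Elovl3, 1.55 for Hsd3b5, 1.39 for Cish, 1.28 for Bcl6 and 1.14 for Socs2. It was 0.77 for Selenbp2, 0.70 for Igfals, 0.41 for Ghr, 0.37 for Igf1 and 0.18 for Stat5b, beside a median of 0.45 over all tested genes. Elovl3 stood at the 95.1th percentile of all tested genes and Stat5b at the 7.9th. This SD also depends on level, so each gene was set among the 1000 genes nearest to it in level. There Ghr stood at the 69.4th percentile, Igf1 at the 59.1th and Stat5b at the 18.4th. The others of the 10 stood between the 92.4th (Socs2) and the 98.3th (Elovl3).

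**Figure D4:**
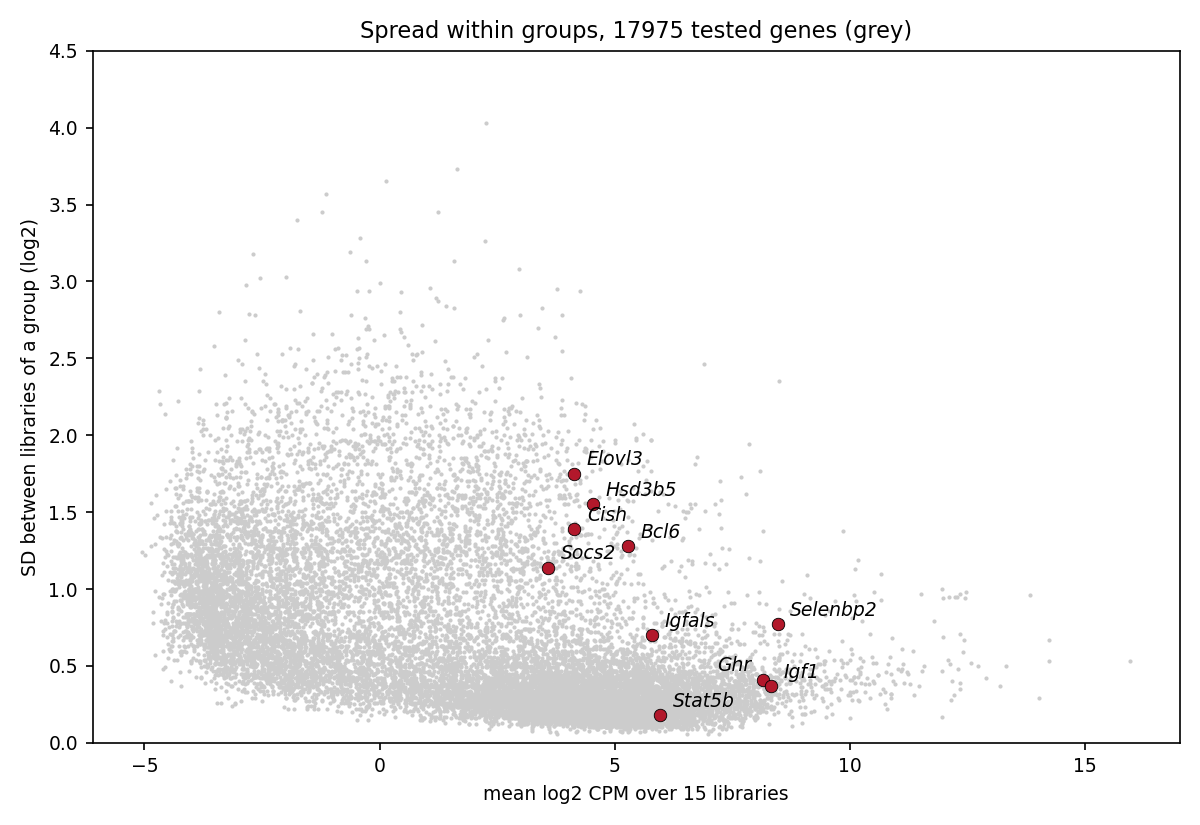
SD between libraries of a group on the log2 scale against the mean log2 CPM over all 15 libraries, for the 10 genes in red and all 17975 tested genes in grey. Elovl3, Hsd3b5, Cish, Bcl6 and Socs2 lie at 1.14 or higher and Stat5b at 0.18.

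The genes whose levels ran most like those of 4 of the genes over the 15 libraries were ranked by Pearson's r of log2 CPM among 9642 genes, as a description. These values share the difference between treatments, so r after subtracting group means is given too. For Ghr the closest were Ugt2a3, a glucuronosyltransferase (r = 0.978, 0.88 within groups), Acadsb, an acyl-CoA dehydrogenase (0.976, 0.89), and Arhgap42 (0.975, 0.89). For Igf1 they were Gabbr2 (0.958, 0.93), Cmah (0.957, 0.91) and Hsd11b1, the enzyme that activates glucocorticoids (0.957, 0.88). For Cish they were Phlda1 (0.95, 0.95), the transcription factor gene Onecut1 (0.93, 0.82) and Foxq1 (0.898, 0.88). For Hsd3b5 they were Slco1a1 (0.972, 0.92), Mup21 (0.966, 0.86) and Cyp4a12a (0.958, 0.79), all 3 members of the male-biased list.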

How the data were processed

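The deposited file of each library holds expected counts per gene and TPM from 1 run of RSEM 1.3.0 by the authors, after alignment of reads with STAR 2.7.8a to GRCm39, according to the submitters' processing notes. The kit kept strand, per the labels' protocols. Annotation release and strand setting are not given in the sources used here. A table of another mouse build, used for names alone, gave symbols for 52029 of 56953 gene IDs (91.4%). Promoters came from RefSeq's GRCm38.p6.

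After rounding, expected counts went into edgeR 4.0.16 (R 4.3.3), with filterByExpr by group (minimum count 10, minimum total 15), TMM scaling and robust quasi-likelihood, 1 mean for each of the 4 groups, over all 15 libraries. Benjamini-Hochberg adjustment ran over 17975 genes in each of 5 comparisons, and a gene was called at an adjusted p under 0.05. The biological coefficient of variation was 50.9%. The fits were tested on simulated data. Groups came from the labels, and replicate numbers follow accession order and pair nothing.

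The 10 genes, the gene lists and the rule for naming genes were chosen with earlier results of these data known. The rule named all 10 genes, a fixed selection of each list and the 2 called genes of each list with the lowest adjusted p in each comparison. A gene of the fixed selection is not reported here. For Ghr, Igf1, Cish and Hsd3b5 it also named the 3 most alike genes whose mean log2 CPM (computed from the deposited counts) was 2 or more. The alternatives were DESeq2 1.42.0, other scaling (RLE, upper quartile), no low-count filter, 1 CPM in 3 libraries, limma 3.58.1 on log2(TPM + 1) and log2(TPM + 0.1) with and without a mean TPM of 0.5, a term for markers of other cells or for depth (above 75 megacounts), only the groups compared, and each library left out. A fit without a scaling factor was added after the data were seen.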

Additional observations from a re-analysis of the deposited data

How the results depend on the processing

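No paired analysis was possible because the labels give no replicate numbers and name no animals that groups could share. Where a cause is not named below, the cause was not tested. In ΔEGFR, 746 genes were called with CCl4 (319 higher, 427 lower). The number was 2398 with DESeq2, 470 with no low-count filter, 2077 with limma on log2(TPM + 1) (1937 higher, 140 lower), 1833 with limma on log2(TPM + 0.1) (1693 higher, 140 lower), 36 with a term for other cells, 1643 with a term for depth, 1286 with only the 2 groups compared and 1180 with no scaling factor (997 higher, 183 lower). Leaving out single libraries gave 75 to 2145. Of the 76 other pathway genes, 17 were called in ΔEGFR, 29 with DESeq2, 4 with the term for other cells, and 7 to 24 with single libraries left out. In WT, 2250 genes were called (955 higher, 1295 lower), against 3611 with DESeq2, 1457 with no low-count filter, 806 with the term for other cells, 533 with only the 2 groups compared, and 575 to 5111 with single libraries left out. The split in WT was 2613 higher and 341 lower with limma on log2(TPM + 1), and 2326 higher and 515 lower with no scaling factor. Of the pathway genes 26 were called in WT, 16 with limma and no filter, 12 with the term for other cells, 10 with only the 2 groups compared, and 10 to 33 with single libraries left out. With only the 2 groups compared, the WT calls of Stat3, Sh2b1, Grb2, Sirpa, Socs7, Igf2r, Igfbp4 and Igfbp6 were lost. Those of Mup20, Abcd2, Cyp3a44, Lifr, Hsd3b2 and Hsd3b3 were lost too, as was the ΔEGFR call of Sh2b1. With no low-count filter, the WT calls of Stat3, Sh2b1, Sirpa, Socs7, Abcd2 and Hsd3b2 were lost. So were the ΔEGFR calls of Sh2b1 and Abcd2. For genotype in mineral oil DESeq2 called 9 genes against 0 with edgeR. Under CCl4, DESeq2 and limma with no filter called 1 gene each, and for the interaction DESeq2 called 2, limma 1 and limma with no filter 2. Without scaling, or on TPM, the median log2 fold change of all genes with CCl4 was 0.44 and 0.39 in ΔEGFR and 0.4 on both in WT, so directions near 0 shift by construction.

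Some directions turned round in a CCl4 comparison. Of the 10 genes of the growth hormone set this held for Stat5b, at 0.03 in WT with each of the 3 limma fits, and in ΔEGFR at 0.16, 0.17 and 0.16 with those fits and 0.07 with no scaling factor. Socs7 in ΔEGFR was 0.14 and 0.18 with limma on log2(TPM + 1) and log2(TPM + 0.1), and 0.14 with no scaling factor. With limma on log2(TPM + 1), which gave the same value with and without the filter, WT values were 0.4 for Jak2, 0.56 for Irs2, 0.07 for Igf1r and 0.96 for Cyp17a1, and with log2(TPM + 0.1) they were 0.47, 0.63, 0.9 and 1.31. In ΔEGFR the values were 0.08 for Irs2 and for Sh2b1, 0 for Igfbp2 and 0.48 for Cyp17a1 with log2(TPM + 1), and 0.12, 0.08, 0 and 0.6 with log2(TPM + 0.1). With the term for other cells, WT values were −0.17 for Stat5a, −0.56 for Igfbp3, 1.18 for Cyp17a1 and 0 for Prlr, and ΔEGFR values were −0.33 for Jak2, −0.22 for Stat5a, −0.07 for Ptpn1, −0.87 for Igf1r and 0.58 for Cyp17a1. With no scaling factor, chosen after seeing the data, WT values were 0.26 for Jak2, 0.08 for Irs2, 0.32 for Cyp17a1 and 0.07 for Prlr, and ΔEGFR values were 0.01 for Sh2b1 and 0.42 for Cyp17a1. With the term for depth Igf1r was 0.06 in WT and Stat5a −0.03 in ΔEGFR. With single libraries left out, WT values ran from −0.32 to 0.26 for Jak2, −0.05 to 0.26 for Stat5a, −0.53 to 0.62 for Irs2, −1.49 to 2.19 for Igf1r, −0.45 to 0.78 for Igfbp3, −0.55 to 1.9 for Cyp17a1 and −0.56 to 0.05 for Prlr. In ΔEGFR they ran from −0.22 to 0.17 for Stat5a and −0.42 to 0.35 for Cyp17a1. Depth limits the values of genes under 1 CPM, such as Pappa, Cux2 and Igf2.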

Other observations

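The clock transcription factor gene Bmal1, read after the spread of Elovl3 had been seen, is set beside Elovl3 as values without a test. In ΔEGFR CCl4 libraries Bmal1 was 3.36, 2.46, 12.8 and 25.5 CPM where Elovl3 was 0.406, 0.489, 3.43 and 16.1 CPM. In ΔEGFR mineral oil libraries Bmal1 was 2.87, 10.8, 28.7 and 1.27 CPM where Elovl3 was 25.9, 145, 179 and 71.5 CPM. In WT mineral oil libraries Bmal1 was 3, 2.53, 11.1 and 20.5 CPM where Elovl3 was 19.8, 40.3, 323 and 137 CPM. In each of these 3 groups the pair of libraries with the most Bmal1 was also the pair with the most Elovl3. Other clock genes ran differently. With group means subtracted, Pearson's r of Elovl3 was 0.79 with Bmal1, 0.29 with Nr1d1, −0.68 with Dbp and −0.71 with Per2. Without that subtraction, r with Bmal1 over the 15 libraries was 0.17. WT CCl4 libraries all held much Bmal1, at 26.5, 25.7 and 20.8 CPM, and Elovl3 at 6.62, 3.7 and 8.54 CPM. The hour at which each sample was taken is not given in the sources used here. Dbp, another clock gene, stood at 0.742, 1.98 and 1.72 CPM in WT CCl4 libraries. In WT mineral oil libraries Dbp stood at 100, 177, 52.4 and 26.5 CPM. Of 18 clock genes, 7 fell and 0 rose with CCl4 in WT, where 7.2% of all tested genes fell and 5.31% rose. In ΔEGFR 0 were called, against 2.38% and 1.77%. The groups did not overlap for 8 lower and 3 higher genes in WT, and for 0 in ΔEGFR. Of all tested genes 11.9% in WT and 9.32% in ΔEGFR were lower without overlap. Under CCl4, 6 clock genes were higher and 1 lower in ΔEGFR than in WT without overlap, with 0 called. There 0% of all tested genes were called and 2.38% were lower without overlap. The share higher without overlap is not given here, so nothing is read from these counts. The part of the clock in the differences with CCl4 or between genotypes was not tested.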
